A study of Homo sapiens with 3 samples.

Results

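CHD9, TET2 and BOD1L1 are genes for proteins that act on chromatin, and their transcripts were measured in PLC, which the labels give as human cells of liver cancer. The 3 genes were chosen by name from the 6632 genes for which every curated RefSeq transcript had a row of its own in the count table and at least 1 row was an mRNA. Their measured differences were known when they were chosen, so the values below are a description and carry no test. All 3 passed the minimum used here, a mean of at least 1 CPM, the usual depth-scaled count, over the libraries, as did 898 of the 6632 genes, and each stood above it in every library. RNA was sequenced from the control, labelled NTC, and from cells with an shRNA knockdown of HKDC1 (shHKDC1) or of RBBP5 (shRBBP5), to find genes that depend on either. Each group is 1 library, which leaves every difference without a replicate check, and brackets give 95% intervals that cover counting error only. All cells grew in DMEM with fetal bovine serum. The sources used here give neither the number of hairpins nor the time after knockdown, nor whether the cells were pools or clones.

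CHD9 (gene 80205, chromosome 16) belongs to the chromodomain helicases, ATP-driven enzymes that move nucleosomes, and is known in liver as a partner of the nuclear receptor PPAR alpha. TET2 (gene 54790, chromosome 4) oxidises 5-methylcytosine, a step in removing DNA methylation, and is well known as a tumour suppressor of blood cells. BOD1L1 (gene 259282, chromosome 4) protects stalled replication forks and works with the SETD1A complex, which methylates histone H3 at lysine 4 and in which RBBP5 is a core subunit, while HKDC1 is a hexokinase-like enzyme. The H3K4 methyltransferases of the SETD1 type are brought to CpG-rich start sites by a CpG-binding subunit, CXXC1, which is why the sequences around the start sites are shown with their CpGs.

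RefSeq (GRCh38.p14) lists 7 start-site windows for these genes, each 300 bases long and running from 250 bases before the start to 50 after it. CHD9 has 4, TET2 has 2 and BOD1L1 has 1. The 5 windows with the most CpGs follow, 5′ to 3′ on the gene's own strand, with each CpG in capitals.
CHD9 window 1, chr16:53054741-53055040, plus strand: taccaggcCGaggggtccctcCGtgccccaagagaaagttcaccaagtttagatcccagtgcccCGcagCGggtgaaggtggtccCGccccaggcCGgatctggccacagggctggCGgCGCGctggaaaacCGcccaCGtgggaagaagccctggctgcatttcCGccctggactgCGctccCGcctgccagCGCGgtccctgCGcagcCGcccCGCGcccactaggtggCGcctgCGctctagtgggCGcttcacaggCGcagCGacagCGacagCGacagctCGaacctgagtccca
CHD9 window 2, chr16:53130762-53131061, plus strand: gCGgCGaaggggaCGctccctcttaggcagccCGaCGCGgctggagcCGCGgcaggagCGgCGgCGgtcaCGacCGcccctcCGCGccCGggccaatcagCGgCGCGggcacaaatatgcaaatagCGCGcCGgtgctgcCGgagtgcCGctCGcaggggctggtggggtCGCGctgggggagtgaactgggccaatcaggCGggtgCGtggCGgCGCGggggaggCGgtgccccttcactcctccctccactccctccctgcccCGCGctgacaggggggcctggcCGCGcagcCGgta
TET2 window 1, chr4:105145625-105145924, plus strand: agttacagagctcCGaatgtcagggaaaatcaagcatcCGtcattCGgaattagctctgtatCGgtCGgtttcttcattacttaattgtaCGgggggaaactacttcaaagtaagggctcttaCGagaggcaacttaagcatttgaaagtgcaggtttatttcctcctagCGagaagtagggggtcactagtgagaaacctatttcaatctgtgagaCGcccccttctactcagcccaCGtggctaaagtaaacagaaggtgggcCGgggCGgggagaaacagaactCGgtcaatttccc
TET2 window 2, chr4:105146626-105146925, plus strand: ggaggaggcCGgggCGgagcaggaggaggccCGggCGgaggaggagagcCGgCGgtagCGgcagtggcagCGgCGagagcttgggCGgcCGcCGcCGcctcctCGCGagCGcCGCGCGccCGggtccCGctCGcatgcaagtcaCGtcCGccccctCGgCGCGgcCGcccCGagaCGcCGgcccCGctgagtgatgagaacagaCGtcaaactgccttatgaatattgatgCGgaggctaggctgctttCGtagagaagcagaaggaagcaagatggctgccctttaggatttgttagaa
BOD1L1, chr4:13627676-13627975, minus strand: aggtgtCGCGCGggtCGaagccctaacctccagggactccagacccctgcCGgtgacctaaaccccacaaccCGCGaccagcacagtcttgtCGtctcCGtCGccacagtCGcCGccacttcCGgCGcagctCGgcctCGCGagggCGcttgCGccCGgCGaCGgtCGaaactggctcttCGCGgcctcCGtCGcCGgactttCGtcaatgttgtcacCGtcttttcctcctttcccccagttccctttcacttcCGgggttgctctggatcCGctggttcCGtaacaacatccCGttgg

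Each gene had at least 1 start-site window with more CpGs than most RefSeq windows. BOD1L1 held 34 CpGs in its window, more than 84.4% of the 35116 RefSeq windows, whose median was 14. TET2 window 2 held 35 CpGs, more than 85.9% of windows, while window 1, with 13, lay close to the median. CHD9 windows 1 and 2 held 28 and 38, more than 73.8% and 90.1% of windows. Its windows 3 and 4, which lie further downstream, held 2 and 5. The start of the GENCODE transcript matched to the shorter TET2 mRNA, NM_017628.4, coincided with the start site of window 1 (distance 0 bases). That of the longer mRNA, NM_001127208.3, lay 90 bases from the start site of window 2. The GENCODE transcript matched to the main CHD9 mRNA began 24991 bases from the nearest RefSeq start, so that row could not be tied to a window.

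**Figure D1:**
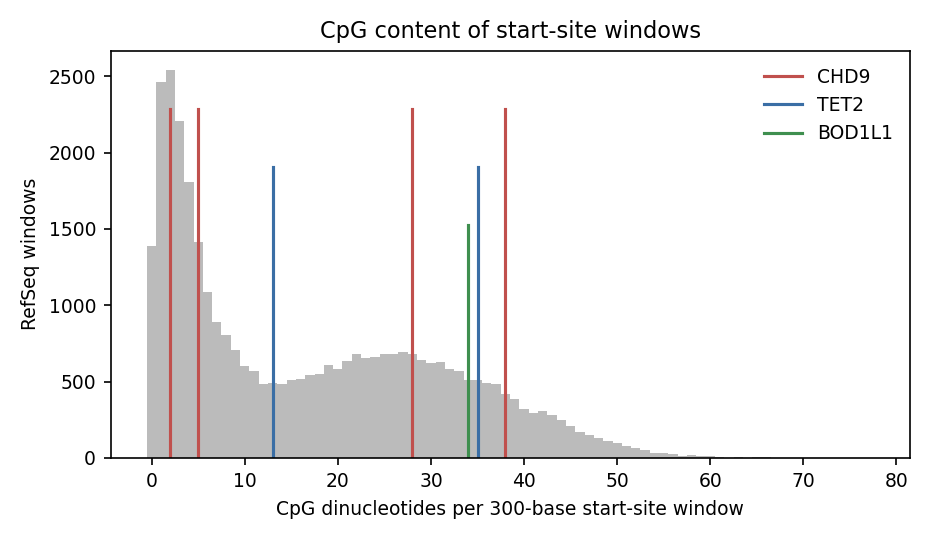
Number of CpG dinucleotides (horizontal axis) in the 35116 RefSeq start-site windows of 300 bases, with the number of windows on the vertical axis (grey bars). Coloured lines mark the 7 windows of CHD9, TET2 and BOD1L1 and their heights carry no value; BOD1L1 lies at 34, TET2 at 13 and 35, and CHD9 at 2, 5, 28 and 38.

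Short motifs were searched on both strands, and no motif was found in a window of all 3 genes. The E-box CACGTG occurred once in CHD9 window 1 and once in TET2 window 1, against 7.26% of all windows. The core AAGATGG, bound by YY1, occurred once in TET2 window 2 and once in CHD9 window 4, against 5.84%. The ETS core CCGGAAG occurred at 2 positions in the BOD1L1 window and in none of the others, where 10.3% of all windows hold it. CHD9 window 2 held the CCAAT box at 2 positions and window 3 at 1 (CCAAT, in 34.6% of windows). The GC box GGGCGG, in 45.0% of windows, was found 5 times in TET2 window 2, 4 times in CHD9 window 1, and once each in CHD9 window 2 and TET2 window 1. TATAAA, in 11.5% of windows, was found in none of the 7. These are matches of letters, and binding at them was not measured.

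The 3 libraries totalled 115556160 to 161750310 deposited units, which are estimated counts. If 1 sequenced fragment is worth 4 units, an assumption made because low values pile up at 4, the smallest library holds 28889040 fragments. No such pile-up was seen at 8 units in NTC, so the assumption is uncertain. The fragment counts and the bracketed intervals rest on it. HKDC1, RBBP5 and the hepatocyte genes ALB and AFP had 0 rows of their own, so neither the loss of the targeted transcripts nor the liver identity of the cells was checked here. Between 99.4% and 99.6% of the units lay in anonymous assembled loci without a gene name. Whether reads of CHD9, TET2 or BOD1L1 also lay there was not tested. In RNA from a whole culture, fewer cells that express a gene and less RNA per cell cannot be told apart. The 898 named genes above the CPM minimum had a median log2 ratio of −0.41 in shHKDC1 and −0.20 in shRBBP5 over NTC, against −0.02 and 0.02 for 12355 anonymous loci. The first median was −0.68 with total counts and −0.25 with upper-quartile scaling. It depended on the filter: over 3987 genes with no CPM minimum the medians were 0.02 and −0.10, and over 203 genes of at least 5 CPM −0.54 and −0.20. Of the calls among named genes in shHKDC1 over NTC, 26.5% were higher. Total counts made this 15.8% and upper quartiles 37.4%, while no CPM minimum made it 52.1% and a minimum of 5 made it 4.08%. In the direct comparison of the knockdowns 39.6% were higher, against 26.8% under total counts and 49.2% under upper quartiles.

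CHD9 was the member with the lowest ratio in both knockdowns. Its mRNA rows summed to 8.38 CPM in NTC [7.55 to 9.29], 2.58 CPM in shHKDC1 [2.0 to 3.28] and 3.29 CPM in shRBBP5 [2.75 to 3.90]. NTC stood apart from both knockdowns, whose counting intervals overlapped each other. The log2 ratio was −1.70 [−2.10 to −1.32] in shHKDC1, a level 3.24-fold lower than in NTC, and −1.35 [−1.65 to −1.06] in shRBBP5, 2.54-fold lower. Taken from the median of all named genes, these log2 ratios were −1.29 and −1.14. A lower ratio was held by 8.02% of the 898 named genes in shHKDC1 and by 3.90% in shRBBP5. These ranks and differences hold for the mRNA rows of CHD9 alone. With its noncoding rows, described further below, the log2 ratios were −1.09 and −1.17, and no rank was taken for them.

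TET2 was lowest in shRBBP5. It stood at 5.82 CPM in NTC [5.13 to 6.58], 4.28 CPM in shHKDC1 [3.52 to 5.15] and 2.69 CPM in shRBBP5 [2.2 to 3.25]. The shRBBP5 library was the lowest and its interval met neither of the others, while those of NTC and shHKDC1 met narrowly. Its log2 ratio over NTC was −1.11 [−1.46 to −0.78] in shRBBP5, a 2.16-fold lower level. In shHKDC1 the ratio was −0.44 [−0.78 to −0.12], close to the median of all named genes (difference −0.04), and upper-quartile scaling gave −0.30 [−0.64 to 0.03], which includes 0. Between the knockdowns the shHKDC1 level was the higher by 1.59-fold (log2 0.67 [0.27 to 1.07]).

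BOD1L1, which is tied to an H3K4 methyltransferase complex, lay closest to NTC of the 3 in shRBBP5. It stood at 10.0 CPM in NTC [9.12 to 11.0], 6.18 CPM in shHKDC1 [5.25 to 7.20] and 6.95 CPM in shRBBP5 [6.16 to 7.82]. NTC was the highest library and the knockdowns overlapped. The log2 ratio was −0.70 [−0.97 to −0.44] in shHKDC1 and −0.53 [−0.75 to −0.31] in shRBBP5, short of the 2-fold change that a call required. Of the named genes, 35.5% had a lower ratio in shHKDC1 and 26.8% in shRBBP5.

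A gene was called where the level differed at least 2-fold (a log2 ratio of 1 or more in size) with an interval that left out 0. By this rule CHD9 was lower in shHKDC1, where 24.1% of named genes were called lower and 8.69% higher, and TET2 and BOD1L1 were not called. In shRBBP5, where 9.58% of named genes were called lower and 2.67% higher, CHD9 and TET2 were lower and BOD1L1 was not called. These contrasts were known when the genes were chosen, so nothing is read from the counts. In the direct comparison of the knockdowns 18.8% of named genes were called lower in shHKDC1 and 12.4% higher, and none of the 3 was called. CHD9 had a direct ratio of −0.35 [−0.80 to 0.09] and BOD1L1 of −0.17 [−0.46 to 0.11], and both intervals include 0. They leave out 0 with total counts, at −0.55 [−0.99 to −0.11] and −0.37 [−0.66 to −0.09]. They also leave it out where each unit is taken as a read, which narrows them to −0.57 to −0.14 and −0.31 to −0.03.

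**Figure D2:**
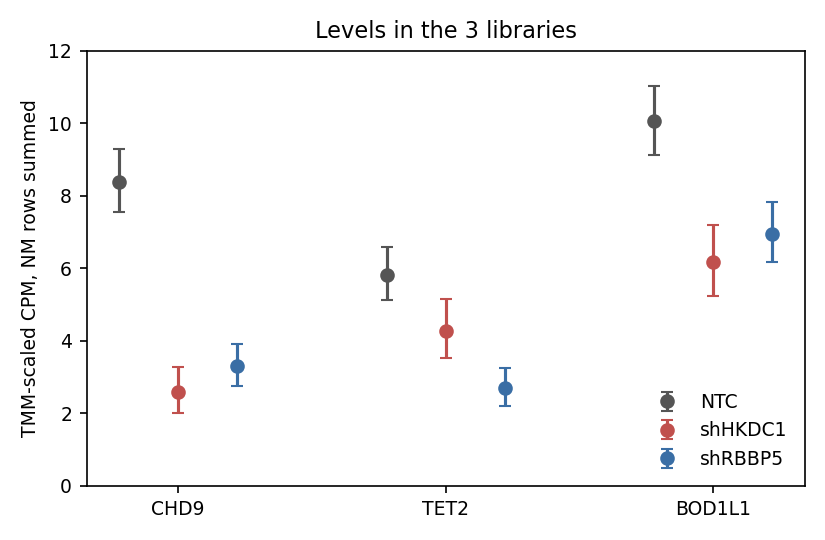
TMM-scaled CPM (vertical axis) of CHD9, TET2 and BOD1L1 in the NTC, shHKDC1 and shRBBP5 libraries, 1 point per library, with bars for the exact 95% Poisson interval of counting error. NTC is highest for each gene (8.38, 5.82 and 10.0 CPM); shHKDC1 is lowest for CHD9 and BOD1L1 (2.58 and 6.18 CPM) and shRBBP5 for TET2 (2.69 CPM).

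All 3 transcripts are long, and the median ratio of long named genes was below that of shorter ones in both knockdowns. GENCODE gives 11337 bases for the transcript matched to the main CHD9 mRNA, 9679 for that of TET2 and 10565 for BOD1L1. At least 91.2% of the 792 measured genes with a known length were shorter. The 91 named genes of at least 9 kb had a median log2 ratio of −0.70 in shHKDC1 over NTC and 36.3% were called lower, against −0.35 and 22.3% for 701 shorter genes. In shRBBP5 over NTC the medians were −0.38 and −0.18, with 15.4% and 8.84% called lower. BOD1L1 sat at the median of the long genes in shHKDC1. The part of length in these ratios was not tested.

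Per kilobase, the scale on which genes can be compared with each other, the order of the 3 genes was not the same in every library. In NTC, CHD9 stood at 0.739 CPM per kb, TET2 at 0.601 and BOD1L1 at 0.951, around the median of 0.738 over the 792 genes. In shHKDC1 the levels were 0.228, 0.442 and 0.585 CPM per kb, against a median of 0.599. In shRBBP5 they were 0.291, 0.278 and 0.657, against a median of 0.649. The CHD9 values are those of its mRNA rows. BOD1L1 was the highest of the 3 in each library, and CHD9 went from the middle place in NTC to the lowest in shHKDC1.

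Ratios between members within a library do not depend on how libraries are scaled. CHD9 made up 45.5% [42.0 to 49.0] of the fragments of CHD9 and BOD1L1 together in NTC. This share was 29.5% [23.7 to 35.9] in shHKDC1 and 32.1% [27.6 to 36.9] in shRBBP5, below NTC in both. With the noncoding CHD9 rows described next it was 47.4% [44.0 to 50.9] in NTC, 40.7% [34.8 to 46.9] in shHKDC1 and 36.6% [32.1 to 41.3] in shRBBP5, and the NTC and shHKDC1 intervals then overlapped. TET2 made up 36.7% [33.1 to 40.4] of TET2 and BOD1L1 in NTC, 41.0% [35.0 to 47.1] in shHKDC1 and 27.9% [23.4 to 32.6] in shRBBP5. Relative to BOD1L1, TET2 was therefore low in shRBBP5 alone, and its NTC and shHKDC1 intervals overlapped. Of TET2 and CHD9 together, TET2 made up 41.0% [37.1 to 45.0] in NTC, 62.4% [54.8 to 69.5] in shHKDC1 and 45.0% [38.5 to 51.5] in shRBBP5. With the noncoding CHD9 rows, the shHKDC1 share was 50.2% [43.4 to 57.0] and that of NTC 39.1% [35.4 to 43.0].

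CHD9 has 19 rows in the table, 9 for mRNAs (NM) and 10 for transcripts that RefSeq classes as noncoding (NR), and the kinds differed in shHKDC1. A single mRNA, NM_001308319.2, with 2897 codons in the matched GENCODE transcript, held 94.6% of the mRNA units of NTC and 100% in either knockdown. Its level was 7.92 CPM in NTC, against 2.58 with shHKDC1 and 3.29 with shRBBP5. In NTC, NM_001352156.3 added 0.241 CPM and NM_001352157.3 added 0.201 CPM, and both were listed at 0 in the knockdowns. The sum over NR rows was 0.670 CPM in NTC, 1.67 CPM with shHKDC1 and 0.728 CPM with shRBBP5. They were therefore highest in the library where the mRNA was lowest.

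NR rows made up 7.41% [4.97 to 10.4] of all CHD9 units in NTC, 39.2% [29.9 to 48.9] in shHKDC1 and 18.1% [12.5 to 25.0] in shRBBP5. No single NR row had units in all 3 libraries: NR_168112.1 led in NTC with 0.344 CPM, and NR_168123.1 in shHKDC1 and shRBBP5 with 0.501 and 0.414 CPM, where NTC was at 0. With NR rows added, CHD9 stood at 9.05 CPM in NTC, against 4.25 with shHKDC1 and 4.02 with shRBBP5. The log2 ratio in shHKDC1 was then −1.09 [−1.41 to −0.79] in place of −1.70, and in shRBBP5 −1.17 [−1.45 to −0.90] in place of −1.35. CHD9 was called lower in both either way. The knockdowns compared directly gave 0.08 [−0.29 to 0.44] in place of −0.35, so their order depends on which rows are summed.

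Differences of this kind also occurred in other genes. Among 158 measured genes with both kinds of row, the NR share differed by at least 20 percentage points between shHKDC1 and NTC in 30, and in 13, CHD9 included, it was higher in shHKDC1 by at least the 31.8 points of CHD9. The division of reads among overlapping transcripts is an estimate, and single rows can trade places. ATRX, for example, had a summed log2 ratio of −1.34 in shHKDC1 over NTC, while its most abundant mRNA row alone gave 1.52.

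**Figure D3:**
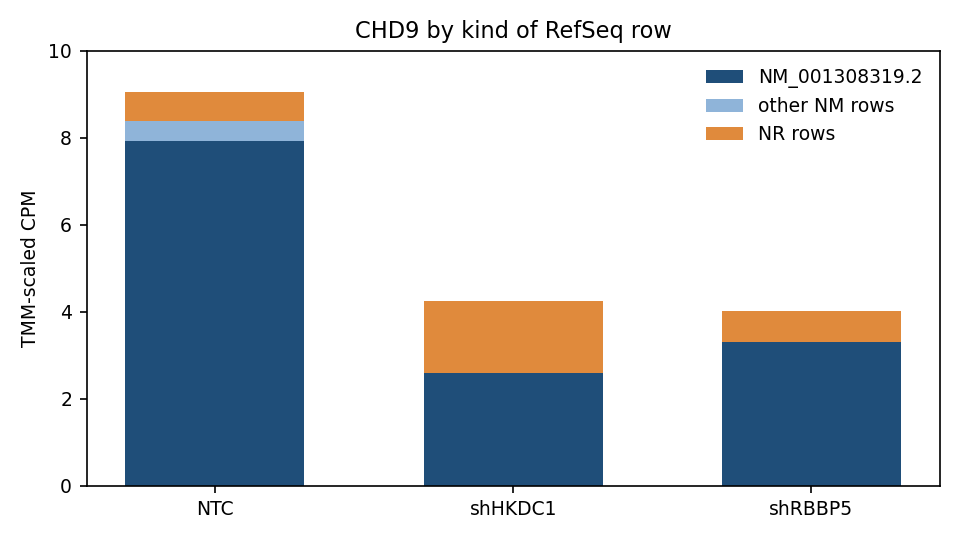
TMM-scaled CPM (vertical axis) of CHD9 in each library, stacked by kind of RefSeq row: the main mRNA NM_001308319.2, the other mRNA rows, and the noncoding NR rows. The main mRNA is 7.92 CPM in NTC, 2.58 with shHKDC1 and 3.29 with shRBBP5, while the NR part is 0.670, 1.67 and 0.728 CPM.

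TET2 has 2 rows, both mRNAs with units in every library. NM_001127208.3, whose matched transcript encodes 2002 codons, carried 95.7%, 99.5% and 98.8% of the TET2 units of NTC, shHKDC1 and shRBBP5, at 5.57, 4.26 and 2.66 CPM. Its own log2 ratios, −0.39 in shHKDC1 and −1.06 in shRBBP5, were close to those of the gene. NM_017628.4, with 1165 codons, is the short form that lacks the catalytic domain. It stood at 0.252 CPM in NTC, about 11 fragments. The values of 0.0193 CPM in shHKDC1 and 0.0314 CPM in shRBBP5 lie below the level of 3 fragments, 0.116 and 0.0753 CPM, so no fold is given. BOD1L1 has a single row, NM_148894.3, with 3051 codons, and its values are those of the gene.

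The genes whose pairs of ratios over NTC lay nearest to those of each member were named by a distance rule, over 2 ratios that share the NTC library. Nearest to CHD9 among the other named genes were FBN2, a fibrillin of the extracellular matrix, and CASP8AP2, a protein of the histone locus body. FBN2 stood at 3.83, 1.22 and 1.46 CPM in NTC, shHKDC1 and shRBBP5, and CASP8AP2 at 7.77, 2.24 and 3.07 CPM. The zinc finger gene ZNF606, FCGBP and the small GTPase RAB39A followed, at distances of 0.14 to 0.24. Nearest to TET2 were ALKBH8, a tRNA-modifying enzyme, at 6.53, 5.16 and 2.97 CPM, TPBGL, the transcription factor SP4, the GPI-anchor enzyme PIGM and the tRNA methyltransferase TRDMT1. Nearest to BOD1L1 were UVSSA, of transcription-coupled repair, at 8.14, 4.96 and 5.6 CPM, KCNAB3, the histone gene activator NPAT, the histone chaperone subunit UBN2 and the ciliary gene TOGARAM1. TET2 ranked 175 and BOD1L1 178 among the genes nearest to CHD9, and BOD1L1 ranked 90 among those nearest to TET2. In the other direction CHD9 ranked 489 from TET2 and 647 from BOD1L1, and TET2 ranked 270 from BOD1L1. The CHD9 ratios used here are those of its mRNA rows.

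**Figure D4:**
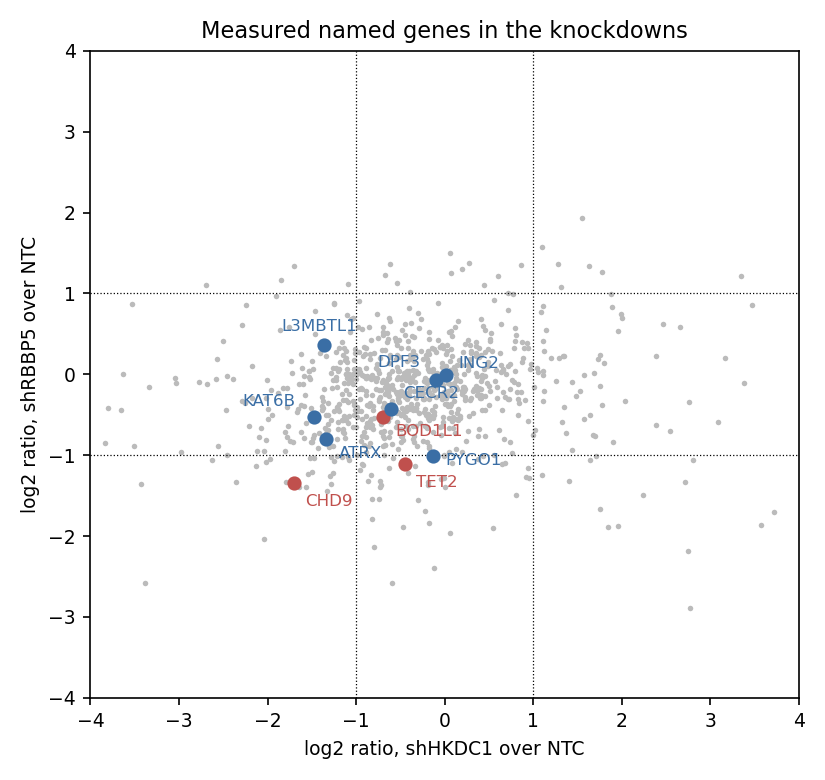
Log2 ratios over NTC in shHKDC1 (horizontal axis) and shRBBP5 (vertical axis), with 1 grey point for each of 887 measured named genes (11 more lie outside the axes); dotted lines mark the 2-fold change. CHD9, TET2 and BOD1L1 are red and the other 7 measured chromatin genes blue; CHD9 lies at −1.70 and −1.35, TET2 at −0.44 and −1.11 and BOD1L1 at −0.70 and −0.53, and both axes share the NTC library.

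Few other chromatin genes could be measured. Of 256 genes on 11 lists of chromatin regulators and replication fork genes, 18 had rows, 15 were fully named and 10 passed the minimum. CHD9 was the only one with a row among the 10 chromodomain helicase genes. BOD1L1 was the only measured gene among 27 of the H3K4 methyltransferase list and among 22 of the replication fork list, and the 5 H3K4 demethylases on the list had 0 rows. TET2 was the only measured gene of 22 linked to DNA methylation. Each of the 10 stood above 1 CPM in every library, the lowest value being 1.72 CPM for L3MBTL1 in shHKDC1.

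In shHKDC1 over NTC, 4 of the 10 were called lower and 0 higher, where 24.1% of all named genes were called lower and 8.69% higher, with a median log2 ratio of −0.65 against −0.41 over all named genes. Beside CHD9 these were KAT6B, a histone acetyltransferase, at −1.48 [−1.78 to −1.19], L3MBTL1, a reader of methylated histones, at −1.37 [−1.86 to −0.88], and ATRX, a remodeller that deposits histone H3.3, at −1.34 [−1.57 to −1.10]. ATRX stood at 18.3, 7.22 and 10.5 CPM in NTC, shHKDC1 and shRBBP5, and KAT6B at 12.8, 4.59 and 8.92 CPM. Both were lowest in shHKDC1, as was the CHD9 mRNA. From its most abundant mRNA row alone, KAT6B gave −0.58 [−0.98 to −0.18], which ends the call, and ATRX turned to 1.52 [1.18 to 1.88], a call in the other direction. In shRBBP5 that ATRX row gave 2.08 [1.78 to 2.40], in place of −0.80 for the sum.

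In shRBBP5 over NTC, 3 of the 10 were called lower and 0 higher, where 9.58% of all named genes were called lower and 2.67% higher, with a median of −0.53 against −0.20. Of the 3, CHD9 and TET2 were chosen with these differences known. The third was PYGO1, a Wnt co-activator that reads methylated H3K4, at −1.01 [−1.27 to −0.77]. PYGO1 stood at 10.0, 9.14 and 4.95 CPM in NTC, shHKDC1 and shRBBP5, with shRBBP5 lowest, as for TET2. With upper-quartile scaling its ratio was −0.99, which ends the call. ING2, the other measured reader of methylated H3K4, stood at 2.93, 2.96 and 2.92 CPM, with ratios of 0.02 [−0.41 to 0.44] and −0.00 [−0.39 to 0.36]. The SWI/SNF subunit DPF3 had ratios of −0.10 [−0.55 to 0.36] and −0.06 [−0.46 to 0.33], and the remodeller subunit CECR2 −0.60 and −0.42. From the most abundant mRNA row alone both became calls in both knockdowns, DPF3 lower (−8.98 and −9.60) and CECR2 higher (10.6 and 10.8). These intervals have no outer bound. The DPF3 row held no fragments in either knockdown, and the CECR2 row none in NTC.

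Without the 3 members, the other 7 genes had medians of −0.60 in shHKDC1 and −0.42 in shRBBP5, against −0.41 and −0.20 over all named genes. Of the 7, 3 and 1 were called lower, where 24.1% and 9.58% of all named genes were. L3MBTL1 was the only one of the 10 called between the knockdowns, at 1.72 CPM in shHKDC1 against 5.72 in shRBBP5 (log2 −1.73 [−2.22 to −1.26]). Its ratio in shRBBP5 over NTC was 0.36 [0.08 to 0.65] from mRNA rows and −0.00 with its NR rows added, so its direction there is not settled by these values. With total counts KAT6B was also called lower in the direct comparison (−1.15), and with upper quartiles PYGO1 was called higher (1.00). HDAC4, a histone deacetylase with 6 of its 15 transcripts on rows, stood at 15.3, 15.5 and 11.1 CPM on those rows, with ratios of 0.02 and −0.46.

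**Figure D5:**
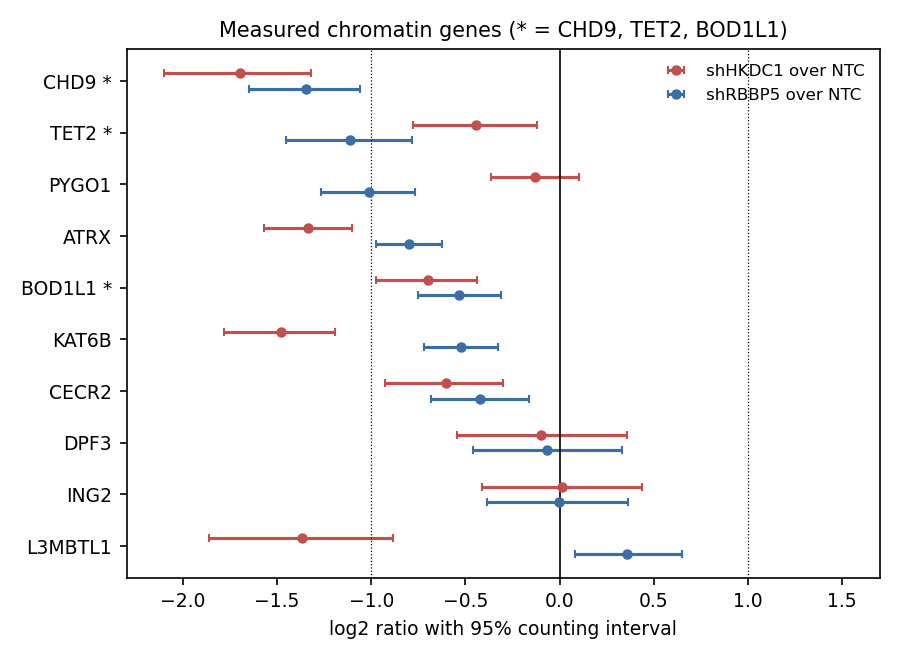
Log2 ratios over NTC (horizontal axis) with 95% counting intervals for the 10 measured chromatin genes, in shHKDC1 (red) and shRBBP5 (blue), ordered by the shRBBP5 ratio; dotted lines mark the 2-fold change and stars mark CHD9, TET2 and BOD1L1. CHD9, TET2 and PYGO1 have the lowest ratios in shRBBP5 (−1.35, −1.11 and −1.01), and CHD9, KAT6B, L3MBTL1 and ATRX in shHKDC1 (−1.70, −1.48, −1.37 and −1.34).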

How the data were processed

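RNA from 3 PLC libraries (NTC, shHKDC1 and shRBBP5, 1 per group) was analysed from 1 deposited table of estimated counts (expected counts) per row, unscaled for library size or length. HISAT2 2.2.1, StringTie 1.3.4, DESeq2 1.28.1 and hg19 are named, without roles, per the submitters' processing notes. For the annotation, the strand setting and the counting step: not given in the sources used here. Columns named NTC, shHD and shRB were mapped to the samples by those abbreviations.

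Of 43704 rows, 16301 are anonymous loci and 27403 RefSeq transcripts, of which 27357 matched a gene symbol in RefSeq (GRCh38.p14, names only). NM rows were summed per gene. Genes with every curated transcript on a row were used (6632), and 330 partly named genes were kept apart. The 3 genes and all gene lists were chosen with earlier results of these data known.

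CPM used TMM factors from edgeR 4.0.16 (1.079, 0.899 and 1.031 for NTC, shHKDC1 and shRBBP5) over all rows, and log2 ratios a pseudocount of 0.5 units. Fragments were taken as units divided by 4 and rounded. In NTC, 525 rows held 4 units, against 332 with 3 and 235 with 5. At 8 units there was no such peak: 227 rows held 8, against 254 with 7 and 162 with 9. Intervals for ratios and shares are exact 95% Clopper-Pearson intervals on fragments, and those for CPM exact Poisson. The reads carry no molecular identifiers and so are not independent molecules, and intervals cover counting error only. With 1 library per group no test was made. Named genes were the 3 members, each list gene above the CPM minimum, and the 5 named genes nearest to each member by Euclidean distance over the 2 log2 ratios. HDAC4, which is partly named, was added after its values were seen. Row lengths and codons come from GENCODE 29 transcripts matched by accession without version. Alternatives were other scalings (total counts, DESeq2 1.42.0 size factors, upper quartiles), the 20 most abundant rows left out, other filters, a pseudocount of 5, units as reads, and 1 row per gene. Analyses used R 4.3.3 and Python 3.11.15.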

Additional observations from a re-analysis of the deposited data

Results flagged for a closer look

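The noncoding (NR) rows of CHD9, which the sum over mRNA rows leaves out, were above NTC in shHKDC1. They summed to 1.67 CPM against 0.670 CPM, a log2 ratio of 1.31 [0.60 to 2.05], on about 43 and 29 fragments. In shRBBP5 they stood at 0.728 CPM, with a ratio of 0.12 [−0.66 to 0.93]. This was a difference in rows outside the main measurement, and no replicate exists to check it. The division of reads among overlapping transcripts is an estimate. Of 158 measured genes with both kinds of row, 13, CHD9 included, rose at least as far in NR share in shHKDC1.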

How the results depend on the processing

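Each of the 9 ratios of CHD9, TET2 and BOD1L1 was recomputed under 9 alternatives. Of the 81 values, 80 stayed inside the counting interval of the reported value, which assumes 4 units per fragment. With units as reads the intervals are narrower and more values fall outside. In shHKDC1 over NTC, total counts gave CHD9 −1.96 against an interval of −1.89 to −1.51. TET2 was at −0.71 against −0.61 to −0.28, and BOD1L1 at −0.96 against −0.83 to −0.57. Some of the 81 values could not move. Units as reads change only the interval, BOD1L1 has a single mRNA row, and TET2 and BOD1L1 have no NR rows. The exception to the wider intervals was CHD9 in shHKDC1 over NTC with NR rows added, a setting chosen after seeing the data, at −1.09. No call of a member changed under the 9 alternatives, which did not include a CPM filter. With means of 4.75 and 4.26 CPM, CHD9 and TET2 fall out at a minimum of 5. Across scalings, pseudocounts and units as reads, CHD9 ranged from −1.96 to −1.55 in shHKDC1 and from −1.41 to −1.32 in shRBBP5, TET2 from −0.71 to −0.30 in shHKDC1 and from −1.18 to −1.09 in shRBBP5, and BOD1L1 from −0.96 to −0.55 in shHKDC1. TMM over loci and summed genes was also added after seeing the data. Counts of calls moved with the CPM filter. With no filter, named genes higher and lower were 436 and 401 in shHKDC1 over NTC, 118 and 246 in shRBBP5 over NTC, and 540 and 333 in the direct comparison, where the minimum of 1 gave 78 and 216, 24 and 86, and 111 and 169. With a minimum of 5 the same counts were 2 and 47, 0 and 9, and 5 and 31, over 203 genes in place of 898, and the share called higher was also smaller; the cause was not tested. Only 5 of the 10 chromatin list genes passed the minimum of 5, and 2, 1 and 0 of them were called lower in these comparisons. In the direct comparison, total counts gave 2 list genes lower and upper quartiles 1 higher. No paired analysis was possible because each group has 1 library. Depth limits the short TET2 mRNA and single NR rows, which rest on few fragments.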
